A study of Homo sapiens with 6 samples.

Results

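The genes described here encode the receptors for insulin and insulin-like growth factor, the adaptors IRS1, IRS2 and GRB10 that bind them, and 3 FOXO transcription factors at the end of the pathway. They were chosen by gene symbol, with the brightest probe set annotated to that gene alone standing for each gene. Of the 9 genes listed, 8 (INSR, IGF1R, IRS1, IRS2, GRB10, FOXO1, FOXO3 and FOXO4) were measured among 18417 genes in all. No probe set is assigned to PIK3CA alone in the annotation used, so that gene was not analysed here. The cells were Du145, a human prostate carcinoma line, cultured at 37 °C with 10% serum, high glucose and 5% CO2. All groups were at 1% oxygen, for 24 h before collection. Each of 3 groups has 2 arrays, 6 in all: shTSC2-adapted (labelled as adapted from the knockdown), shTSC2 (TSC2 knocked down) and control. Cells of both shTSC2 groups had been infected with a knockdown lentivirus. How adaptation was achieved, what virus if any the controls carried, and whether paired arrays are separate cultures is not in the labels, so p-values cover only array-to-array spread, possibly technical.

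Insulin and the insulin-like growth factors bind receptor tyrosine kinases that phosphorylate IRS proteins, which recruit PI 3-kinase and so activate AKT. AKT phosphorylates TSC2, which releases the growth kinase mTORC1 from its brake, and it also phosphorylates FOXO factors, which then leave the nucleus. The pathway is restrained by feedback: mTORC1 and its kinase S6K act on IRS1 and GRB10 to dampen the receptors, and FOXO factors in the nucleus raise transcription of INSR and IRS2. Loss of TSC2 is known to leave mTORC1 active and the response to insulin blunted. The arrays measure RNA, whereas much of this feedback acts on proteins.

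The RNA of the targeted gene matched the labels. TSC2 had log2 intensities of 6.54 and 6.48 in shTSC2-adapted, 6.67 and 6.55 in shTSC2, and 7.52 and 7.59 in control. That is 48.5% of the control intensity in shTSC2-adapted (limma adjusted p = 0.0241) and 51.9% in shTSC2 (adjusted p = 0.00102). Intensity need not scale with the amount of RNA, so the share of TSC2 RNA left is not given. The shTSC2-adapted call for TSC2 ended without shTSC2-adapted 1 (adjusted p = 0.169), shTSC2-adapted 2 (0.0973), control 1 (0.386) or control 2 (0.373). The epithelial keratins KRT8 and KRT18 lay at 11.22 to 11.50 on the 6 arrays. Of 5 epithelial markers, KRT19 and EPCAM fell in shTSC2 and 3 were higher in shTSC2-adapted than in shTSC2, and the summed intensity of the 5 was 6410 to 6420 in shTSC2-adapted, 5840 to 6040 in shTSC2 and 5340 to 5630 in control. Of 6 markers of embryonic kidney cells used to package virus, PAX2 and NEFM rose in shTSC2, while WT1, EYA1, SALL1 and LIN28B did not pass. Sums of the 6 were 273 to 325 in shTSC2-adapted, 298 to 320 in shTSC2 and 246 to 250 in control. The secreted prostate markers KLK3 and KLK2, which this line lacks, were at 5.01 to 5.60. Of 6 lymphoid and myeloid markers CD68 and FCER1G rose in shTSC2 (sums of 373 to 397 in shTSC2-adapted, 478 to 498 in shTSC2 and 343 to 350 in control), and of 6 fibroblast markers 0 passed in any comparison with limma (COL3A1 and PDGFRA at an unadjusted p under 0.05, sums of 292 to 303 in shTSC2-adapted, 284 to 289 in shTSC2 and 260 to 265 in control). Over all genes 20.8% passed in shTSC2 versus control, the share beside which these marker calls stand. In bulk RNA, fewer cells of a type and less RNA per cell cannot be told apart, and the part these markers play in the results was not tested.

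In shTSC2 both receptor genes and GRB10 fell, while the changes of IRS1 and FOXO1 were 0.02 and 0.01 on the log2 scale. INSR, the insulin receptor, was at 53.2% of its control intensity. IGF1R, the receptor for insulin-like growth factor 1, was at 44.8% on its brighter probe set and 22.8% on the other. GRB10, an adaptor that binds both receptors and is stabilised by mTORC1, was at 44.9%. Of the 8 genes measured, 5 changed, 4 lower and 1 higher, where 20.8% of all 18417 genes changed, 13.9% lower and 6.87% higher. The 1 higher was FOXO3, which read lower on a brighter probe set shared with FOXO3B. The calls of FOXO3 and FOXO4 depended on single arrays and on the processing. The median change of the 8 was -0.42, against 0.03 for all genes. With each array centred on its median, 4 of the 8 were lower and 0 higher, against 2962 lower and 868 higher genes in all and 2567 lower and 1266 higher as deposited. Array values are given on the log2 intensity scale. A change is the difference of 2 group means (SE, its standard error, n = 2 arrays per group), tested with limma.

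**Figure D1:**
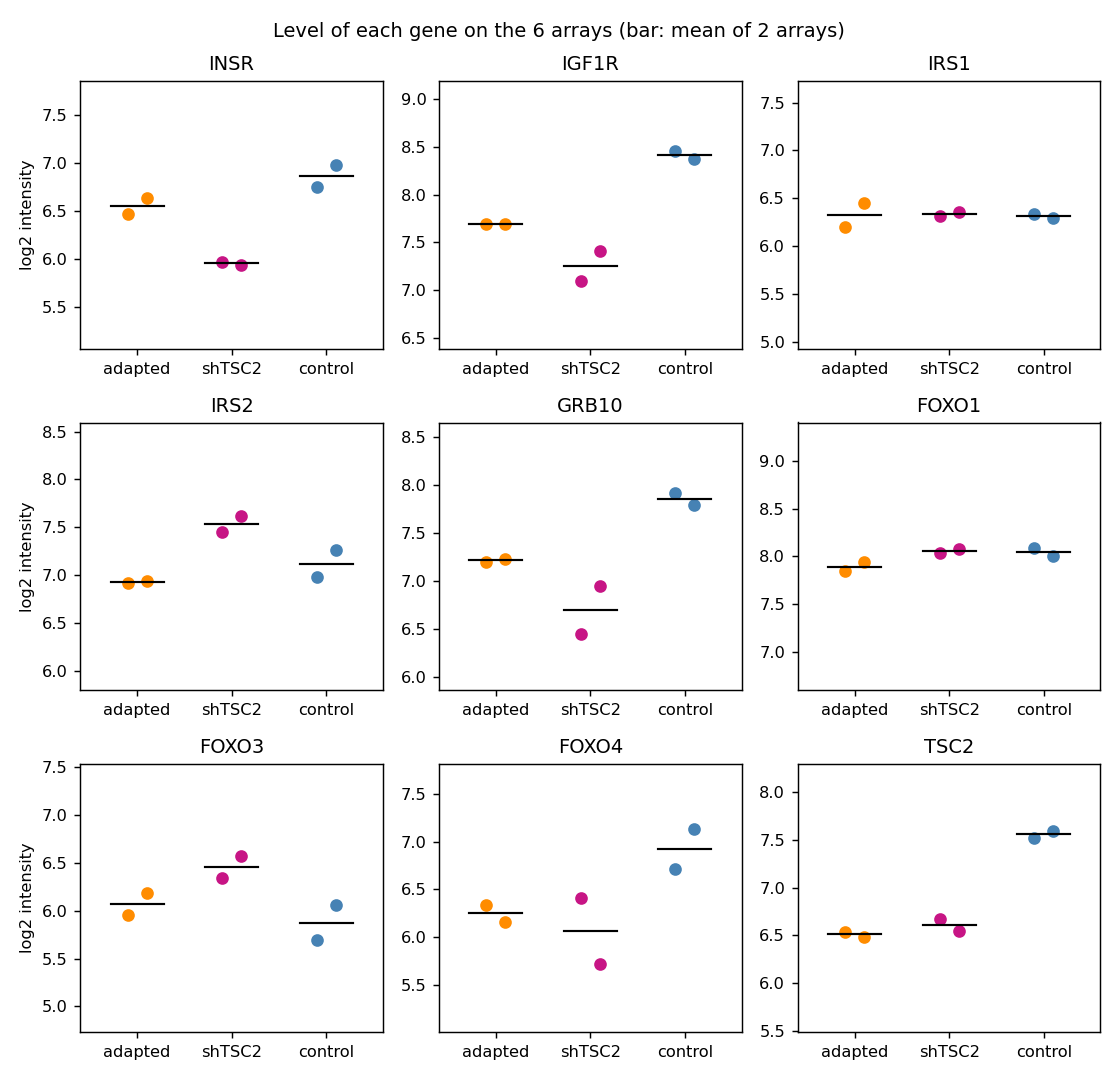
Log2 intensity (vertical axis, each panel spanning the same range) of the 8 genes and TSC2 on each of the 6 arrays, by group from left to right: shTSC2-adapted, shTSC2 and control. Points are arrays and bars the mean of 2 arrays. INSR, IGF1R and GRB10 are lowest in shTSC2 and lie between in shTSC2-adapted, whereas TSC2 is low in both knockdown groups and IRS1 is level.

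The promoters of both receptors and of GRB10 and IRS2, the adaptors that changed in at least 1 comparison, are shown to set their sequence beside their response. The windows are the 250 bases before the RefSeq start (GRCh38.p14, all 8 genes matched), for INSR chr19:7294415-7294664 on the minus strand, IGF1R chr15:98648289-98648538 on the plus strand, GRB10 chr7:50793454-50793703 on the minus strand (the most upstream of 5 windows) and IRS2 chr13:109786584-109786833 on the minus strand. Capitals mark the GC box, GGGCGG, which reads CCGCCC on the other strand, with overlapping matches counted. They also mark the insulin response motif, CAAAACAA, which reads TTGTTTTG on the other strand.
INSR: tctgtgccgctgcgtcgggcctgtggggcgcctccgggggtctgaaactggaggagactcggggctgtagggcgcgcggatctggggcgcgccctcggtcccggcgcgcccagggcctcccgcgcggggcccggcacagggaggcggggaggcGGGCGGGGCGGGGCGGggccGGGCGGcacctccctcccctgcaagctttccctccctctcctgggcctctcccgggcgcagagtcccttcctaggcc
IGF1R: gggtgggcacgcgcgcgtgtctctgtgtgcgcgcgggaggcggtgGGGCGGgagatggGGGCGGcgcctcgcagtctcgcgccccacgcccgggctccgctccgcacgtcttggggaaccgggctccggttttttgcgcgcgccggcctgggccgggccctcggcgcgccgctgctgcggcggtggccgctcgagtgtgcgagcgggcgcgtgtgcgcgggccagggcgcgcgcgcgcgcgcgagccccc
GRB10: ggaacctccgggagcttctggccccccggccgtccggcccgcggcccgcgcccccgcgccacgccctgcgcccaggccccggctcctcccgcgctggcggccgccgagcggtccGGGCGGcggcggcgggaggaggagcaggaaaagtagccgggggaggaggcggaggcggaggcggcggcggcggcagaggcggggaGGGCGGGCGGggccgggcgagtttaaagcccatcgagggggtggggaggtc
IRS2: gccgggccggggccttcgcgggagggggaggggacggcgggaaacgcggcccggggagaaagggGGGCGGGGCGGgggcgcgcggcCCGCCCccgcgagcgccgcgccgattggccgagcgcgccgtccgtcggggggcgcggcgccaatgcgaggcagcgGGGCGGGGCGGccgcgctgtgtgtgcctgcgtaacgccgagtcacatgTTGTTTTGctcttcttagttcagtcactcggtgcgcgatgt
The 4 windows were 76.4% to 81.6% G and C, against a median of 58% over 35116 promoter windows of the same length. They held 4 GC boxes in INSR, 2 in IGF1R, 3 in GRB10 and 5 in IRS2, and 42.6% of all windows held at least 1. The insulin response motif, known from liver genes that insulin represses, was found in the IRS2 window, beginning 41 bases before the start, and in 1.46% of all windows. For FOXO binding only the exact letters GTAAACA, which read TGTTTAC on the other strand, were searched, and no variant of them. These letters are in 2.98% of all windows and were in none of the windows of the 8 genes. The insulin response motif was counted apart from them, so their absence does not mean that a window lacks a site for FOXO factors. A match or its absence is a description of letters in this window and says nothing of binding. The IRS1 window had 80.8% G and C and 4 GC boxes, while that of FOXO4 had 54.4% and 0. The other GRB10 windows ranged from 30.4% to 81.6%, and 3 of the 5 held 0 GC boxes.

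The receptors are described first. INSR was at 6.47 and 6.64 in shTSC2-adapted, 5.97 and 5.94 in shTSC2, and 6.75 and 6.98 in control. The 3 groups did not overlap, with shTSC2 lowest and control highest. The fall in shTSC2 was -0.91 (SE 0.12, 95% interval -1.18 to -0.64, adjusted p = 0.00213), and it passed without any single array (-1.03 to -0.80, adjusted p between 0.00534 and 0.0331). In shTSC2-adapted INSR was higher than in shTSC2 by 0.60 (SE 0.12, adjusted p = 0.0174), and its difference from control was -0.31 (95% interval -0.58 to -0.04, adjusted p = 0.325). The call of shTSC2-adapted against shTSC2 ended without shTSC2-adapted 1 (0.68, adjusted p = 0.0527) or shTSC2-adapted 2 (0.51, 0.0893).

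IGF1R had 2 probe sets, and both were lowest in shTSC2. The brighter set read 7.69 and 7.69 in shTSC2-adapted, 7.10 and 7.41 in shTSC2, and 8.46 and 8.37 in control. The other set read 6.99 and 7.48 in shTSC2-adapted, 5.76 and 6.37 in shTSC2, and 8.20 and 8.20 in control. On neither set did any group overlap another. The fall in shTSC2 was -1.16 (SE 0.12, adjusted p = 0.00111) on the brighter set and -2.14 (SE 0.23, adjusted p = 0.00176 over 21214 probe sets) on the other, or 44.8% and 22.8% of the control intensity. The sets gave falls of different size in the same direction. Against shTSC2, the shTSC2-adapted level stood 0.44 higher on the brighter set (SE 0.12, adjusted p = 0.0596), which passed without shTSC2 2 (0.59, 0.0163), and 1.17 higher on the other (SE 0.23, adjusted p = 0.0227). Against control, shTSC2-adapted stood at -0.72 (SE 0.12, adjusted p = 0.0713), or 60.5% of the control level, and passed when shTSC2 1 or shTSC2 2 was left out (0.0252 each).

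**Figure D2:**
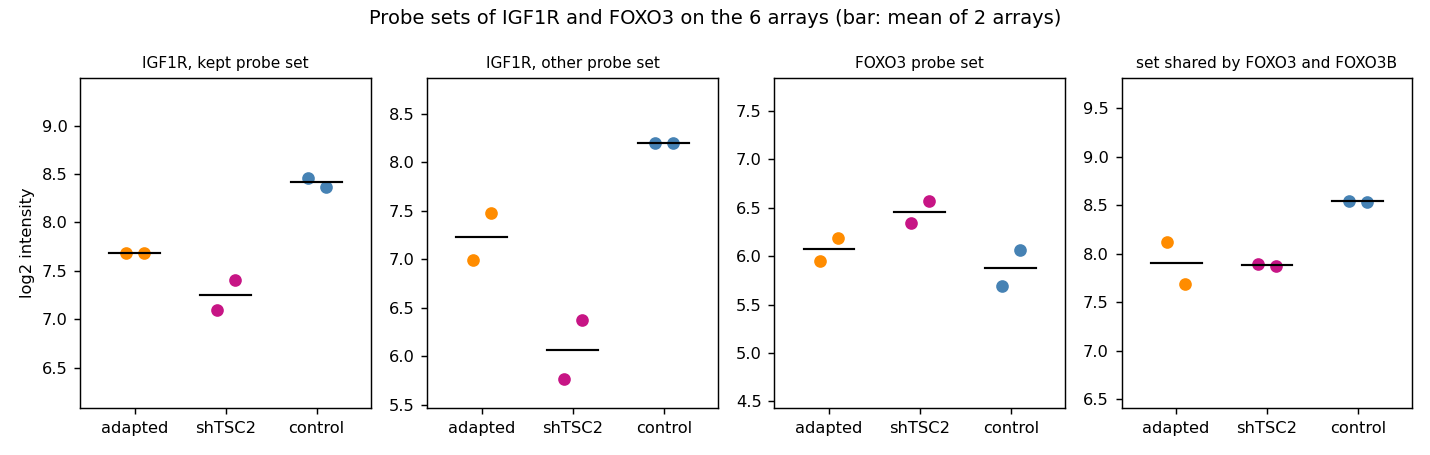
Log2 intensity (vertical axis) on each of the 6 arrays for 4 probe sets: the 2 of IGF1R, that of FOXO3, and one annotated to both FOXO3 and FOXO3B. Points are arrays, grouped from left to right as shTSC2-adapted, shTSC2 and control, and bars are means of 2 arrays. Both IGF1R sets are lowest in shTSC2, while the FOXO3 set is highest in shTSC2 and the shared set is highest in control.

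Among the adaptors, GRB10 fell in shTSC2, while IRS2 and IRS1 did not pass the test there. GRB10 was at 7.20 and 7.23 in shTSC2-adapted, 6.45 and 6.95 in shTSC2, and 7.92 and 7.79 in control, again with no overlap between groups. Its fall in shTSC2 was -1.16 (SE 0.16, 95% interval -1.53 to -0.78, adjusted p = 0.00295) and passed without any single array (-1.41 to -0.91, adjusted p between 0.000942 and 0.0375). The shTSC2 arrays differed from each other by more than the arrays of either other group. Its shTSC2-adapted level stood 0.51 above shTSC2 (SE 0.16, adjusted p = 0.0835), a difference that passed without shTSC2 2 (0.76, 0.00885). Against control it was -0.64 (SE 0.16, adjusted p = 0.155), and this passed without shTSC2 1 or shTSC2 2 (0.036 each).

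IRS2, the IRS protein whose gene FOXO factors are known to induce, had its highest level in shTSC2. It read 6.92 and 6.94 in shTSC2-adapted, 7.45 and 7.62 in shTSC2, and 6.98 and 7.26 in control. The shTSC2 arrays lay above the other 4. The difference of shTSC2 from control was 0.41 (SE 0.12, 95% interval 0.13 to 0.70) and missed the threshold (adjusted p = 0.0513), with 0.0473 when shTSC2 1 was left out, 0.045 with quantile normalization, 0.0381 with dim genes left out and 0.0435 with a replicate block. In shTSC2-adapted IRS2 was lower than in shTSC2 (-0.60, SE 0.12, adjusted p = 0.0211). That call ended without shTSC2-adapted 1 (-0.59, adjusted p = 0.102), shTSC2-adapted 2 (-0.61, 0.0835) or shTSC2 2 (-0.52, 0.0551).

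IRS1, the IRS protein that S6K phosphorylates in the feedback, had 6.20 and 6.45 in shTSC2-adapted, 6.31 and 6.36 in shTSC2, and 6.34 and 6.29 in control. The groups overlapped. Its differences were 0.02 in shTSC2 against control (95% interval -0.24 to 0.28, adjusted p = 0.925), 0.01 in shTSC2-adapted against control (-0.25 to 0.27, 0.987) and -0.01 in shTSC2-adapted against shTSC2 (-0.27 to 0.25, 0.964), and their signs turned with the scaling of the arrays. These intervals do not cover the falls estimated for INSR, IGF1R and GRB10.

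**Figure D3:**
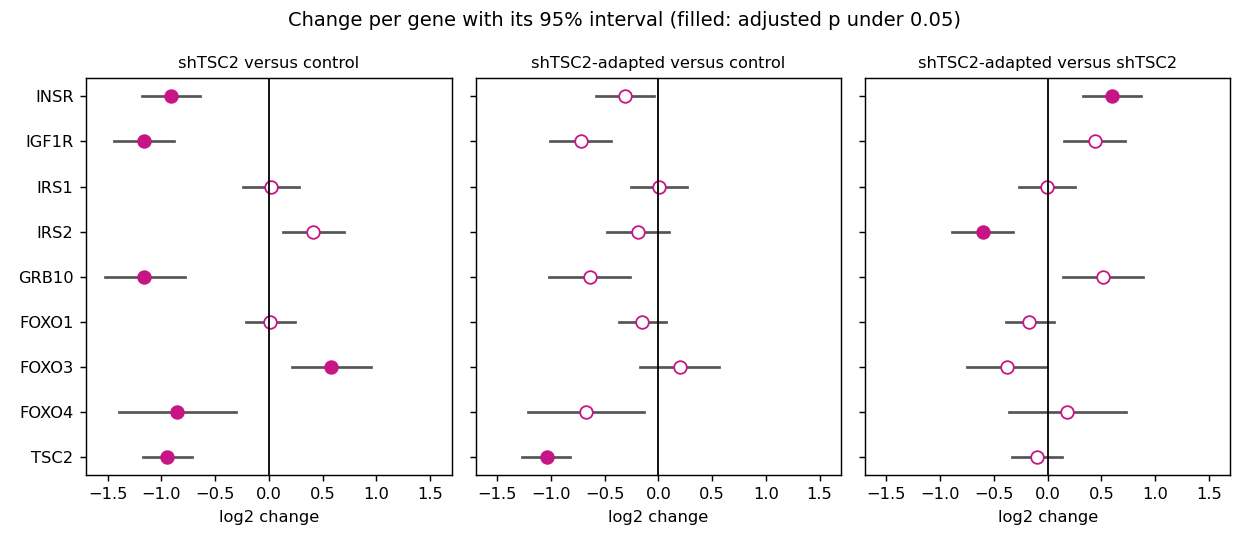
Log2 change of each gene (points, horizontal axis) with its 95% interval (lines) in 3 comparisons, from left to right shTSC2 versus control, shTSC2-adapted versus control and shTSC2-adapted versus shTSC2. Filled points have an adjusted p under 0.05. INSR, IGF1R and GRB10 are lower in shTSC2 with intervals away from 0, IRS1 and FOXO1 have intervals across 0 in each panel, and in the middle panel TSC2 is the one filled point.

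The 3 FOXO genes, whose products turn on genes of stress resistance, cell cycle arrest and insulin sensitivity when AKT is low, did not move together. FOXO1 was at 7.85 and 7.94 in shTSC2-adapted, 8.04 and 8.08 in shTSC2, and 8.09 and 8.00 in control. Its difference in shTSC2 was 0.01 (95% interval -0.21 to 0.24, adjusted p = 0.936), that of shTSC2-adapted was -0.15 against control (adjusted p = 0.603) and -0.17 against shTSC2 (adjusted p = 0.316). FOXO4 read 6.34 and 6.16 in shTSC2-adapted, 6.41 and 5.72 in shTSC2, and 6.71 and 7.13 in control. The control arrays were the highest, and the shTSC2 arrays spanned the shTSC2-adapted ones. FOXO4 fell in shTSC2 (-0.86, SE 0.23, adjusted p = 0.0388), and the call ended without shTSC2 2 (-0.51, 0.105), control 1 (-1.07, 0.0786), control 2 (-0.65, 0.252) or either shTSC2-adapted array (-0.86, 0.0665 each), and with a replicate block (0.0504). The shTSC2-adapted level of FOXO4 stood at -0.67 against control (SE 0.23, adjusted p = 0.294) and 0.18 against shTSC2 (adjusted p = 0.671), the last turning to -0.16 without shTSC2 2.

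FOXO3 gave opposite answers on different probe sets. The set annotated to FOXO3 alone read 5.95 and 6.19 in shTSC2-adapted, 6.34 and 6.57 in shTSC2, and 5.69 and 6.06 in control, and rose in shTSC2 (0.58, SE 0.16, adjusted p = 0.0377). That call ended without shTSC2 2 (0.46, adjusted p = 0.125), control 1 (0.40, 0.244), control 2 (0.76, 0.0584) or either shTSC2-adapted array (0.58, 0.051 each), and with quantile normalization (0.53, 0.0647), median centring (0.52, 0.0536) or array weights (0.58, 0.0507). A second set, annotated to both FOXO3 and its near-identical copy FOXO3B and looked at after its values were seen, read 8.12 and 7.69 in shTSC2-adapted, 7.89 and 7.87 in shTSC2, and 8.55 and 8.54 in control. It was lower in shTSC2 (-0.67, SE 0.14, adjusted p = 0.0207 over 21214 probe sets), and its shTSC2-adapted level stood at -0.64 against control (adjusted p = 0.157). Signal on that set cannot be assigned to one of the 2 genes, so no direction is given here for FOXO3 RNA as a whole. On the FOXO3 set, shTSC2-adapted differed by 0.20 from control (adjusted p = 0.704) and by -0.38 from shTSC2 (adjusted p = 0.166).

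In shTSC2-adapted cells, where TSC2 differed from shTSC2 by -0.10 (adjusted p = 0.564), none of the 8 genes passed against control. With limma 0 of 8 passed (4 at an unadjusted p under 0.05), where 0.261% of all genes passed, 0.0543% higher and 0.206% lower. The 3 lowest of the 8 were IGF1R (-0.72), FOXO4 (-0.67) and GRB10 (-0.64), and the median was -0.25 against 0.00 for all genes. Against shTSC2, 2 of the 8 passed, INSR higher and IRS2 lower, where 12.5% of all genes passed, 9.25% higher and 3.24% lower. The arrays of the 2 groups compared did not overlap for 6 of the 8 genes in each comparison, against 62% of all genes in shTSC2 versus control, 45.9% in shTSC2-adapted versus control and 52.1% in shTSC2-adapted versus shTSC2. The 3 comparisons share arrays, since shTSC2 enters with opposite signs in 2 of them, so their changes are not separate evidence.

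Long genes fell more often in shTSC2, and INSR, IGF1R and GRB10 are long. INSR spans 182 kb, GRB10 203 kb and IGF1R 316 kb in the reference, while FOXO4 spans 7.68 kb, IRS2 33.9 kb, IRS1 68.5 kb, FOXO1 111 kb and FOXO3 125 kb. Of 1465 protein-coding genes of at least 182 kb, 31.3% fell and 1.09% rose in shTSC2, with a median change of -0.12. Of 12540 genes of at most 68.5 kb, 10.4% fell and 8.5% rose. With the trend on gene span removed, INSR stood at -0.62 (adjusted p = 0.0112), IGF1R at -0.88 (0.00399) and GRB10 at -0.87 (0.0112) in shTSC2, all past the threshold, FOXO4 at -0.94 (0.0296), and IRS2 passed as a rise (0.48, 0.034). The rise of INSR in shTSC2-adapted against shTSC2 did not pass with the trend removed (0.37, adjusted p = 0.087), while the fall of IRS2 did (-0.66, 0.0207). Among long genes, 24% were higher in shTSC2-adapted than in shTSC2.

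**Figure D4:**
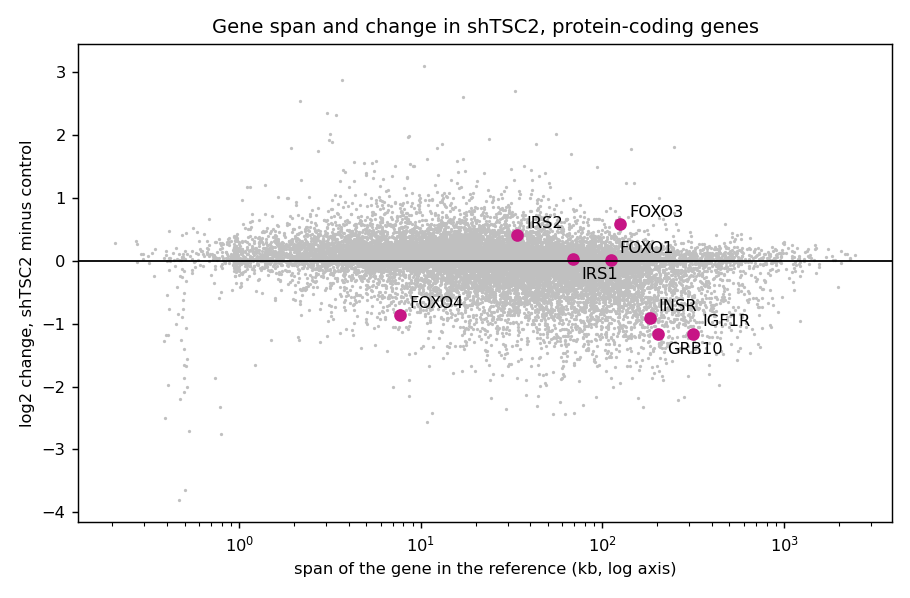
Log2 change in shTSC2 minus control (vertical axis) against gene span in kb (horizontal axis, log scale) for 16902 protein-coding genes (grey points), with the 8 genes marked. INSR, GRB10 and IGF1R lie at the long end and below 0, and FOXO4 is short and below 0.

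By root mean square difference of centred log2 values over the 6 arrays, GRB10 and IGF1R were near neighbours. Neighbours were sought for genes whose group means span at least 1 log2 unit. The 3 genes closest to GRB10 were TLK1, a chromatin assembly kinase (0.0531), IGF1R itself (0.0688) and SRGAP1 (0.0817). The closest to IGF1R were SRGAP1 (0.0596), CEP44, a centrosomal protein (0.0613), and CHRNB1, a subunit of the muscle acetylcholine receptor (0.0636). TLK1 read 7.99 and 7.89 in shTSC2-adapted, 7.08 and 7.63 in shTSC2, and 8.64 and 8.53 in control, the same order of groups as GRB10. In the reference TLK1 spans 240 kb, SRGAP1 318 kb, CEP44 49.7 kb and CHRNB1 12.6 kb. The measure rests on 6 arrays in 3 groups.

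Around these genes, 119 others of the pathway were listed by role and 108 measured. In shTSC2, 10 of the 108 rose and 32 fell, or 38.9% against 20.8% of all genes, with a median change of -0.06. With the gene span trend removed the counts were 14 and 26. The split of all genes moved too, from 1266 higher and 2567 lower to 1758 higher and 1983 lower. The counts by list below stand beside that shift. Lists whose genes are long include the PI 3-kinase group, with a median span of 112 kb, and the receptor adaptors, with 87.1 kb, while that of the FOXO targets was 17.1 kb.

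**Figure D5:**
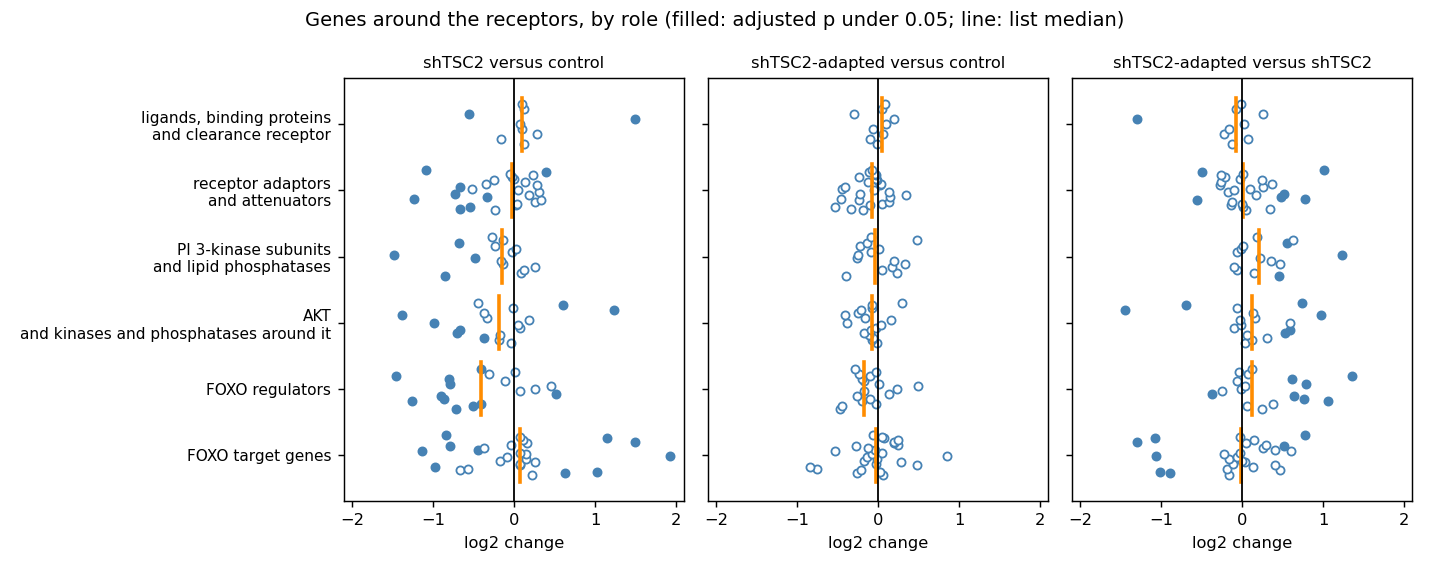
Log2 change (horizontal axis) of each measured gene in 6 lists of the pathway, in the 3 comparisons from left to right shTSC2 versus control, shTSC2-adapted versus control and shTSC2-adapted versus shTSC2. Filled points have an adjusted p under 0.05 and orange lines are list medians. The middle panel has no filled point, and FOXO regulators have the lowest median in the left panel (-0.41).

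Of 9 ligands, binding proteins and related receptors, IGFBP3 rose and IGFBP4 fell in shTSC2, or 22.2% called against 20.8% of all genes. IGFBP3, the main carrier of insulin-like growth factors in serum, read 8.38 and 8.76 in shTSC2-adapted, 9.80 and 9.94 in shTSC2, and 8.45 and 8.29 in control, a rise of 1.50 in shTSC2 (SE 0.14, adjusted p = 0.000812). IGFBP4, a carrier that restrains the growth factors, fell by 0.55 (adjusted p = 0.0153). Of 25 receptor adaptors and attenuators, 7 fell and 1 rose (32% called against 20.8% of all genes, median -0.02), or 5 and 3 with the span trend removed. The docking protein GAB1 fell by 1.23 on its brighter probe set (adjusted p = 0.000649) but stood at 0.01 on the other (0.972), SOS1, the exchange factor for RAS, fell by 1.09 (0.00162) and GRB2, the adaptor that carries SOS1, fell by 0.73 (0.00698). SOCS3, a cytokine-induced inhibitor of receptor signalling, rose by 0.40 (adjusted p = 0.0432). Of 14 PI 3-kinase subunits and lipid phosphatases, 4 fell and 0 rose with limma (28.6% called against 20.8% of all genes, median -0.15, 5 at an unadjusted p under 0.05 in either direction). With the span trend removed 3 fell and 1 rose, and the median turned to 0.06. PIK3CB, a catalytic subunit, fell most: it read 8.86 and 8.98 in shTSC2-adapted, 7.62 and 7.76 in shTSC2, and 9.03 and 9.31 in control (-1.48, SE 0.12, adjusted p = 0.000596). The regulatory subunit PIK3R1, which binds IRS proteins, fell by 0.68 (0.00664) and the lipid phosphatase INPP4A fell by 0.85 (0.00126).

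Of 17 genes of AKT and the kinases and phosphatases around it, 5 fell and 2 rose in shTSC2 (41.2% called against 20.8% of all genes, median -0.19), or 3 and 3 with the span trend removed. SGK1, a kinase related to AKT that also phosphorylates FOXO factors, read 5.32 and 5.54 in shTSC2-adapted, 7.09 and 6.66 in shTSC2, and 5.64 and 5.63 in control, a rise of 1.24 (SE 0.15, adjusted p = 0.00193). THEM4, reported to bind and restrain AKT, rose by 0.61 (0.0139). PPP2R5C, a regulatory subunit of phosphatase PP2A, fell by 1.38 (0.000392), PHLPP1, a phosphatase of AKT, fell by 0.99 (0.00522, with 0.00 on a dim second probe set) and GSK3B, a kinase that AKT inhibits, fell by 0.70 (0.0124). Of 17 FOXO regulators, 10 fell and 1 rose (64.7% against 20.8% of all genes, median -0.41), and 7 fell and 1 rose with the span trend removed. XPO1, the exportin that carries FOXO factors out of the nucleus, read 10.51 and 10.36 in shTSC2-adapted, 8.86 and 9.29 in shTSC2, and 10.52 and 10.55 in control (-1.46, SE 0.15, adjusted p = 0.00101). KAT2B, an acetyltransferase, fell by 1.26 (0.000536) and MDM2, a ubiquitin ligase, fell by 0.90 (0.00201), whereas PRMT1, an arginine methyltransferase, rose by 0.52 (0.00873).

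Of 26 FOXO target genes, 5 rose and 5 fell in shTSC2 (38.5% called against 20.8% of all genes), and the median was 0.07. With the span trend removed 5 rose and 7 fell, with a median of 0.01. GADD45A, a DNA damage and stress gene, rose by 1.92 (SE 0.28, adjusted p = 0.0036), SOD2, the mitochondrial superoxide dismutase, by 1.49 (0.000642) and TRIB1, a pseudokinase, by 1.15 (0.000615). These 3 are also known to respond to other stress and inflammatory pathways. PDK4, a kinase that limits glucose oxidation, fell by 1.13 (0.00703), CDKN1B, an inhibitor of cyclin-dependent kinases, fell by 0.97 (0.00429) and ULK2, an autophagy kinase, fell by 0.84 (0.00793). In shTSC2-adapted against control, PDK4 stood at -0.53, CDKN1B at -0.84 and ULK2 at -0.06, and none passed (adjusted p = 0.321, 0.0778 and 0.936). Over the 6 lists, 11 of 24 named calls ended without at least 1 array (adjusted p between 0.0543 and 0.26). These were CDKN1B, PDK4, PHLPP1 and PRMT1 without control 2, GRB2 without control 1, GSK3B, IGFBP4, PIK3R1, THEM4 and ULK2 without either control, and SOCS3 without any array except shTSC2 2. With the span trend removed, GSK3B (-0.41, adjusted p = 0.0793) and SOCS3 (0.28, 0.113) did not pass.

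In shTSC2-adapted against control, 0 of the 108 pathway genes passed with limma (20 at an unadjusted p under 0.05), where 0.261% of all genes passed. Their median was -0.07 against 0.00 for all genes. With so few calls over all genes, 0 here does not show a return to control. Against shTSC2, 19 of the 108 were higher and 11 lower (27.8% against 12.5% of all genes), or 11 and 9 with the span trend removed. Over all genes, 1703 higher and 597 lower became 1127 and 628 with that trend removed. PIK3CB was higher by 1.23 (adjusted p = 0.00252), XPO1 by 1.36 (0.00288), KAT2B by 1.06 (0.00222), SOS1 by 1.01 (0.00428), PPP2R5C by 0.97 (0.00252) and GAB1 by 0.77 (0.00559, with -0.07 on its other probe set). SGK1 was lower (-1.45, 0.00274), as were IGFBP3 (-1.30, 0.00308), SOD2 (-1.30, 0.00251), TRIB1 (-1.08, 0.00188) and GADD45A (-1.07, 0.0488). GADD45A read 9.30 and 8.32 in shTSC2-adapted, 9.73 and 10.04 in shTSC2, and 8.01 and 7.91 in control, so the shTSC2-adapted arrays were far apart, and the difference was -0.58 without shTSC2-adapted 2.

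The remaining named genes of that comparison came from 5 of the 6 lists. STK3, a kinase that phosphorylates FOXO factors, was higher by 0.79 (adjusted p = 0.00788), ULK2 by 0.78 (0.0175), TRIB3, an inhibitor of AKT, by 0.74 (0.0457), MAPKAP1, a subunit of mTORC2, by 0.59 (0.0159), PIK3R1 by 0.55 (0.025), GRB2 by 0.52 (0.0389), RBL2, a relative of the retinoblastoma protein, by 0.51 (0.031) and INPP4A by 0.45 (0.0221). THEM4 (-0.69, 0.0149), FBXW8, part of a ubiquitin ligase that targets IRS1 (-0.56, 0.0155), SOCS3 (-0.50, 0.0268) and PRMT1 (-0.37, 0.0437) were lower. Of 23 named calls in this comparison 13 ended without at least 1 array (adjusted p between 0.0501 and 0.227). STK3 ended without shTSC2-adapted 1, THEM4 without either shTSC2-adapted array, ULK2 without shTSC2-adapted 2 or either control, and PIK3R1 without shTSC2-adapted 2, shTSC2 1 or either control. FBXW8, INPP4A and MAPKAP1 ended without any shTSC2-adapted or control array, RBL2 without any shTSC2-adapted or shTSC2 array, GRB2 without any array except shTSC2 1, SOCS3 and TRIB3 without any except shTSC2 2 (TRIB3 at 0.46 without shTSC2 1), GADD45A without any except shTSC2-adapted 1, and PRMT1 without any array. With the span trend removed, GADD45A, GRB2, INPP4A, MAPKAP1, PIK3R1, PRMT1, RBL2 and SOCS3 did not pass in this comparison (adjusted p between 0.063 and 0.153).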

How the data were processed

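Expression was measured on 6 arrays, from 100 ng of biotin-labelled total RNA each, per the labels. The deposited values are linear intensities for 33297 probe sets, made by the authors with RMA, as the submitters' processing notes record. The version of RMA and the probe definition are not stated in those notes. RMA equalizes the arrays, so a shift of nearly all genes would not be seen in full. Here log2 was taken. Of the probe sets, 19460 carry 1 symbol, 1754 several and 12083 are unnamed here. The brightest set by mean among those with 1 symbol stands for each of 18417 genes. Limma 3.58.1 in R 4.3.3 fitted the 3 groups together (lmFit, contrasts.fit, eBayes, 3 residual degrees of freedom). Two-sided p-values got Benjamini-Hochberg adjustment across the 18417 genes, and a gene was called under 0.05. On simulated data with 200 changed genes the fit recovered 77% of log2 changes of 1 in shTSC2 versus control, 72.6% in shTSC2-adapted versus control and 75.8% in shTSC2-adapted versus shTSC2. The number of arrays limits the precision.

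The members, the lists of pathway genes and the tests were chosen with earlier results of these data known. Named pathway genes are, for each list and comparison, up to 3 rises and 3 falls among genes that passed with no overlap between arrays. The alternatives tried were median centring, quantile normalization, dropping dim genes, testing every probe set, fitting only the 4 arrays compared, array weights, an intensity trend, removing a trend on gene span, a replicate block, and leaving out each array. Leaving out an array of the group not compared repeats the fit of only the 4 arrays compared. Those settings are not separate, though totals over the alternatives count each. Reading IGF1R and FOXO3 from other probe sets was added after seeing the data. Names and spans come from the RefSeq gene table of GRCh38.p14.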

Additional observations from a re-analysis of the deposited data

How the results depend on the processing

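The falls of INSR, IGF1R and GRB10 in shTSC2 passed under all alternatives in which they were tested, with adjusted p-values of at most 0.0331, 0.0208 and 0.0375. INSR, IRS1, FOXO3 and FOXO4 lie below the median level and were not tested with dim genes left out. Against 5 of 8 genes called in shTSC2, 3 were called with dim genes left out (IGF1R, GRB10 and IRS2, of 4 tested), 3 with only the 4 arrays compared (INSR, IGF1R and GRB10), and 3 to 6 without single arrays, the 6 including IRS2. In shTSC2-adapted against control the 0 called became 1 with median centring or dim genes left out and 2 with only the 4 arrays compared or array weights (0 to 2 without single arrays). In shTSC2-adapted against shTSC2 the 2 became 1 with the gene length trend removed and 0 to 3 without single arrays. Pathway genes called numbered 17 to 41 without single arrays against 42 in shTSC2. In shTSC2-adapted against control, 1 passed with quantile normalization or dim genes left out and 2 with median centring, the 4 arrays compared or array weights (0 to 2 without single arrays). In shTSC2-adapted against shTSC2, 16 passed with only the 4 arrays compared and 13 to 27 without single arrays, against 30. Over all genes, calls in shTSC2 numbered 1175 to 3895 without single arrays against 3833. In shTSC2-adapted against control the 48 became 94 with quantile normalization, 199 with median centring, 121 with dim genes left out, 248 with the 4 arrays compared, 437 with array weights and 0 to 248 without single arrays. In shTSC2-adapted against shTSC2 the 2300 became 1113 with the 4 arrays compared and 837 to 2600 without single arrays. The change of TSC2 in shTSC2-adapted was -1.08 to -1.01 without single arrays.

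The sign turned for IRS1 with quantile normalization (-0.01 in shTSC2, -0.03 in shTSC2-adapted against control) and median centring (-0.04, -0.03, and 0.01 in shTSC2-adapted against shTSC2), and for FOXO1 in shTSC2 with median centring (-0.05). Without single arrays FOXO1 ranged from -0.03 to 0.06 in shTSC2, IRS1 from -0.11 to 0.14 in shTSC2-adapted against control and -0.13 to 0.11 against shTSC2, and FOXO4 from -0.16 to 0.53 against shTSC2. Read from the set shared with FOXO3B, the FOXO3 values were -0.67, -0.64 and 0.03. The cause was not tested. Deviations of the arrays numbered 1 correlated at 0.21 between shTSC2-adapted and shTSC2, -0.19 between shTSC2-adapted and control and -0.10 between shTSC2 and control. With 2 arrays per group, these values cannot tell whether a number marks a shared batch or culture. With a replicate block, FOXO4 in shTSC2 lost its call (adjusted p = 0.0504) and IRS2 gained one (0.0435), so that 5, 0 and 2 of the 8 genes and 1 gene in all in shTSC2-adapted against control passed, and TSC2 in shTSC2-adapted (-1.04) had an adjusted p of 0.0515. Among the named pathway genes, 592 of 700 alternative values kept their call, 108 lost it and 0 changed direction.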
